A study of Mus musculus with 12 samples.

Results

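The genes described here are 8 components and receptors of the complement system that macrophages themselves transcribe: C1qa, C1qb, C1qc, C3, Cfb, Cfp, C3ar1 and C5ar1. They were chosen by symbol, without regard to their values, and all 8 were found among the 54582 gene symbols shared by the 2 deposited count tables. RNA sequencing (polyA RNA, paired reads) was run on primary bone marrow-derived macrophages grown from the tibial marrow of mice aged 6 to 8 weeks. The series asks whether KIF13B, a kinesin motor protein, bears on the uptake of apoptotic cells by macrophages. There were 4 groups of 3 libraries. WT are wild type macrophages cultured alone, and KO are macrophages cultured alone whose genotype is given in one place as Kif13b-/- and in another as a Kif13b knock down. WT + AC and KO + AC are the same genotypes co-cultured for 90 min with apoptotic cells (AC), at 1 macrophage to 5 of them. The apoptotic cells were Jurkat cells, a line from a human T cell leukaemia. The labels give serum as 10, 10 and 11% for the WT libraries and 12, 13 and 14% for the KO libraries, values that rise by 1 down the sample list and are in doubt, and no serum for the libraries with apoptotic cells. It is not said if libraries of a group are from separate mice or cultures, so each p-value below measures only the spread between these libraries.

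Complement is a cascade of plasma and cell-derived proteins that tags cells and debris for uptake. C1q, a hexamer built from A, B and C chains, starts the classical pathway and also binds directly to the surface of dying cells, where it can bridge them to phagocytes, and macrophages are a main source of it. C3 is the central component, whose cleavage leaves C3b on a surface and releases C3a. Factor B (Cfb) and properdin (Cfp) belong to the alternative pathway, which amplifies C3 cleavage. C3a and C5a are sensed by the G protein-coupled receptors C3AR1 and C5AR1.

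Total counts ran from 17000976 to 18770757 per library. The libraries without apoptotic cells are in one deposited table and those with them in the other, so an effect of apoptotic cells and any difference between the tables cannot be told apart. With apoptotic cells, 31787 to 32801 symbols had at least 1 count in a library, and without them 18335 to 18540. The libraries with apoptotic cells were also far closer to one another: the chi-square of counts between 2 libraries of a group was 1.40 to 1.93 per degree of freedom with apoptotic cells, somewhat above sampling noise, and 4.99 to 35.7 without. The 8 macrophage markers examined, Adgre1, Csf1r, Cd68, Itgam, Fcgr1, Lyz2, Mertk and Cd14, had counts in every group. Kif13b itself was lower in KO than in WT (log2 fold change -0.59, edgeR adjusted p = 0.0087) but higher in KO + AC than in WT + AC (0.13, edgeR adjusted p = 0.0261). The last value goes against the labels, so KO + AC below means the libraries labelled so. Among the libraries without apoptotic cells, KO 3 lay nearer to WT 1 (root mean square log2 difference 0.170) than to KO 1 (0.305) or KO 2 (0.317).

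The 3 C1q chain genes lie next to each other on the minus strand of mouse chromosome 4 within 18675 bases (GRCm38, GENCODE vM21). C1qb is at chr4:136880129-136886187, C1qc at chr4:136889804-136893065 and C1qa at chr4:136895917-136898803, each with 3 exons. The gene of C3 is at chr17:57203970-57228136 (42 exons), Cfb at chr17:34856374-34862518 (17 exons), Cfp at chrX:20925454-20931555 (9 exons), C3ar1 at chr6:122847138-122856161 (2 exons) and C5ar1 at chr7:16246743-16259540 (3 exons), all on the minus strand. Counts are of RNA reads, so a value reports the transcript and not the protein. Cfb shares 2246 exonic bases with the gene model Gm20547 on the same strand, to which no library assigned a count, so how reads there were shared out is uncertain.

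The bases just before the start of 3 of these genes are shown because the genes behaved differently with apoptotic cells: C1qb and Cfp fell in both genotypes and C3 was not called in either. RefSeq windows (GRCm38.p6, minus strand, 250 bases before the start, read 5′ to 3′) were matched for 6 of the 8 genes. That of C1qb is chr4:136886201-136886450, that of Cfp chrX:20931556-20931805 and that of C3 chr17:57228137-57228386. Capitals mark matches to any of 7 short motifs of factors active in macrophages, searched on both strands: GAGGAA (ETS core of PU.1 type), TGCTGA (MAF type), TGANTCA (AP-1), GGGA followed after any 4 bases by CC (NF-kB core), TTCNNNGAA (GAS), GAAA followed after any 2 bases by GAAA (interferon-stimulated response element) and TTGCGNAA (C/EBP).
C1qb: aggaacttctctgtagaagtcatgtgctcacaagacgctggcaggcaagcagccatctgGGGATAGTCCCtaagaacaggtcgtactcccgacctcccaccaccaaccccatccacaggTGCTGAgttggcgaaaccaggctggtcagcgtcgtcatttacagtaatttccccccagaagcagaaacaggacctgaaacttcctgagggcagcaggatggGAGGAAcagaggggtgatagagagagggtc
Cfp: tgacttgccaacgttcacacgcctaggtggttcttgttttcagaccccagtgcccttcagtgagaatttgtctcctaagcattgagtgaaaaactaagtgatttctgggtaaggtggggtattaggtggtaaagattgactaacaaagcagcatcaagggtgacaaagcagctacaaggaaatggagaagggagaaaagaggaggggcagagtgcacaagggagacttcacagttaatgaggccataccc
C3: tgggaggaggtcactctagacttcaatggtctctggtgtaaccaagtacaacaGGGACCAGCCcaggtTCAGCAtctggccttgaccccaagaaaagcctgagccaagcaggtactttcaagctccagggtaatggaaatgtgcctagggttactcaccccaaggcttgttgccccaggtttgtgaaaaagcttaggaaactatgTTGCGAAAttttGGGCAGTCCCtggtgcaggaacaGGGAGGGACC
The C1qb window held GAGGAA 30 bases before the start, TGCTGA 131 bases before it and NF-kB core matches on both strands that overlap, 191 and 190 bases before it. The C3 window held NF-kB core matches 197, 33 and 10 bases before the start, TTGCGNAA 45 bases before it and TGCTGA on the other strand at 182. The Cfp window held none of the 7. For comparison, of 32851 mouse windows of the same length, 23.25% held GAGGAA, 16.08% TGCTGA, 6.749% TGANTCA, 17.63% the NF-kB core, 7.02% TTCNNNGAA, 2.977% the interferon-stimulated response element and 0.6697% TTGCGNAA. Such matches are descriptions of letters and not of bound sites.

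With apoptotic cells, transcripts of all 3 C1q chains and of properdin were much lower in both genotypes, C3 was not called in either, and factor B went from none or nearly none to a low level. The 2 anaphylatoxin receptors moved by less than the C1q chains, properdin and factor B. Their response was called different between the genotypes, but neither call held without KO 2 or with scaling on the macrophage markers. Of the 8 genes, 7 were called slightly higher in KO + AC than in WT + AC, beside 6.58% of all genes tested. Of 8 macrophage markers 5 were also called higher. Fewer members stayed called with scaling on these markers, and none in a fit of all 12 libraries together. Between KO and WT without apoptotic cells no member passed the test, beside 16.2% of genes called.

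**Figure D1:**
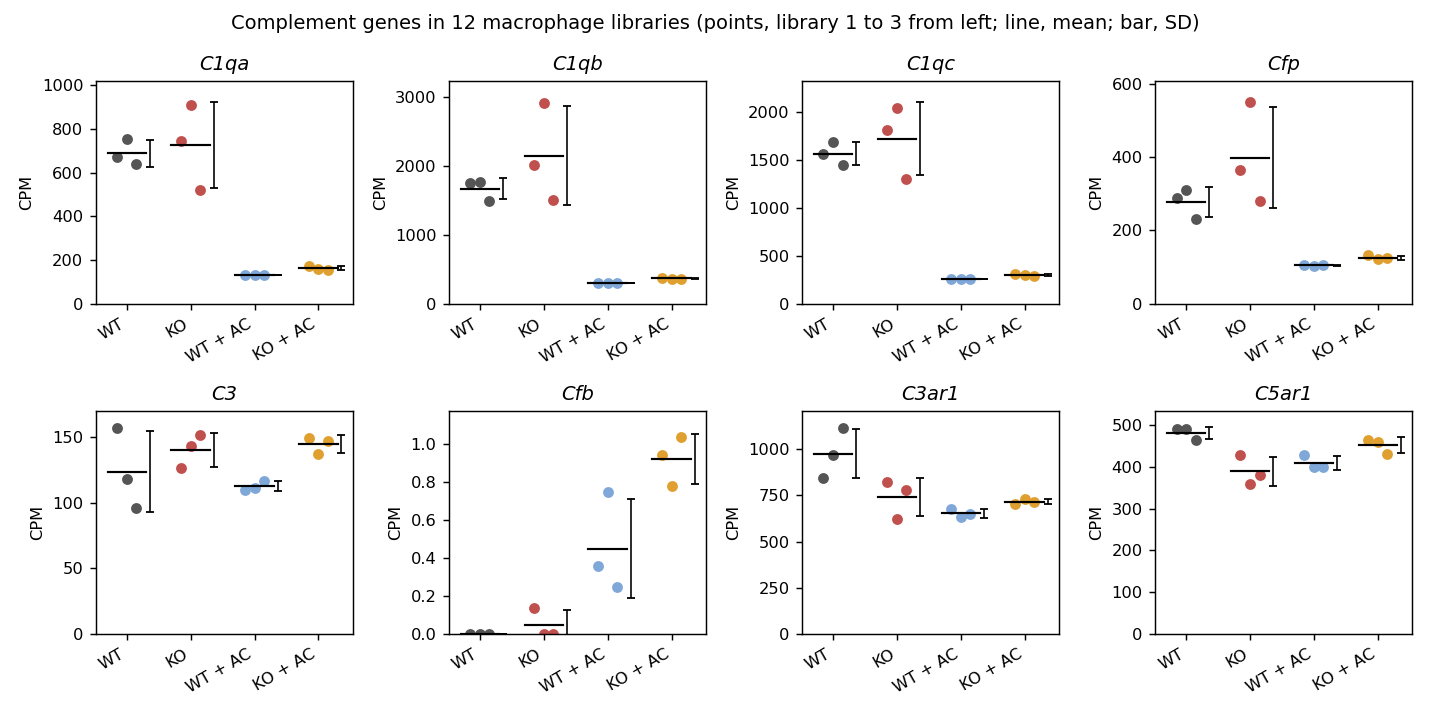
Level of each of the 8 complement genes (CPM, scaled over all 12 libraries; each panel has its own axis from 0) in WT, KO, WT + AC and KO + AC macrophages. Points are the 3 libraries, the line their mean and the bar its SD: C1qa, C1qb, C1qc and Cfp lie lower in all 6 libraries with apoptotic cells than in any library without them.

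C1qa encodes the A chain of C1q. It was measured at 670, 756 and 639 CPM in WT, 745, 911 and 521 in KO, 130, 130 and 130 in WT + AC and 173, 159 and 156 in KO + AC, where CPM is counts per 1000000 counts of a library, with the 12 libraries scaled together by TMM. Every library with apoptotic cells was lower than every library without them. The mean went from 688 ± 60.6 to 130 ± 0.371 in WT (SD, n = 3 each; log2 fold change -2.41, SE 0.14, edgeR adjusted p = 3.221e-13) and from 726 ± 196 to 163 ± 8.73 in KO (-2.16, SE 0.14, edgeR adjusted p = 1.513e-12).

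C1qb, the B chain, stood at 1750, 1771 and 1496 CPM in WT and at 2016, 2919 and 1499 in KO. With apoptotic cells it stood at 302, 302 and 302 CPM in WT + AC and at 378, 361 and 361 in KO + AC. The groups with and without apoptotic cells did not overlap, and KO 2 was the highest library of all. The log2 fold change was -2.47 in WT (SE 0.17, edgeR adjusted p = 1.591e-09) and -2.55 in KO (SE 0.17, edgeR adjusted p = 9.701e-10).

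C1qc, the C chain, was at 1556, 1686 and 1449 CPM in WT and at 1812, 2039 and 1297 in KO. It was at 255, 263 and 256 CPM in WT + AC and at 311, 303 and 290 in KO + AC. Again no library with apoptotic cells reached the level of any without. The log2 fold change was -2.60 in WT (SE 0.12, edgeR adjusted p = 1.782e-17) and -2.51 in KO (SE 0.12, edgeR adjusted p = 2.826e-17).

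These are 3 of the 6 members called lower with apoptotic cells in WT, where 36.7% of the 16810 genes tested were called lower and 85% were called in either direction, and of the 4 called lower in KO (also 36.7% of genes, with 86.3% called in either direction). A call is thus the usual outcome in this comparison, and size separates the chains from most genes. Among the 8194 genes with at least 10 CPM, a view chosen after the values of all genes were seen, 1.03 to 1.42% fell further than the 3 chains in WT and 2.51 to 5.78% in KO, and the median gene stood at -0.217 and -0.150. The change of other genes of like length depended on their level. At 10 CPM or more, genes with an exonic length like that of C1qa, of 1040 bases, had a median log2 fold change of -1.468 in WT and -1.717 in KO, and those like C1qc, of 1931 bases, -1.036 and -1.204. Over all genes tested of a length like that of C1qa the median was instead 2.269 in WT and 2.321 in KO. Of genes of like length at 10 CPM or more, 6.32% in WT and 32.6% in KO fell further than C1qa, and 1.31% and 5.60% fell further than C1qc. The part of transcript length in the fall was not tested further. With a correction for length and GC content fitted to all genes, the changes of C1qa (-4.19 in WT and -3.64 in KO) and C1qb (-3.94 and -3.76) were larger and those of C1qc (-2.44 and -2.04) smaller. At the length of C1qa, the medians of all genes tested and of genes at 10 CPM or more had opposite signs. The correction was fitted to the first set, so its values do not show the part of length in the falls of C1qa and C1qb.

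The fall of C1q was also set beside the macrophage markers, because the apoptotic cells add RNA of their own and in bulk RNA fewer cells of a type and less RNA per cell cannot be told apart. The markers did not move together. Cd68, a lysosomal protein of macrophages, was at -1.12 in WT and -1.21 in KO, Lyz2, lysozyme, at -1.49 and -1.42, and Fcgr1, a high-affinity antibody receptor, at -2.48 and -2.80. Csf1r, the receptor for macrophage colony-stimulating factor, was at 0.44 and 0.72, and Cd14, a co-receptor for lipopolysaccharide, at 2.17 and 2.83. Summed over the 8 markers the level was 30060 to 38050 CPM without and 12770 to 15730 CPM with apoptotic cells. With the libraries scaled on the mean log count of these markers, a choice made after seeing the data, the C1qa, C1qb and C1qc changes were -2.05, -2.12 and -2.25 in WT and -2.00, -2.39 and -2.35 in KO. All stayed called.

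The balance of the 3 chains was described by the share of each in their summed CPM per kilobase of exon, which does not depend on how libraries are scaled. In WT the shares of C1qa, C1qb and C1qc were 22.0 ± 0.810, 51.1 ± 1.32 and 26.9 ± 0.535% (SD, n = 3). In WT + AC they were 23.3 ± 0.136, 51.8 ± 0.182 and 24.9 ± 0.317%, and in KO + AC 24.1 ± 0.478, 51.9 ± 0.510 and 24.0 ± 0.364%. In KO they were 19.7 ± 0.721, 55.0 ± 2.79 and 25.3 ± 2.12%, with the highest C1qb share, 58.1%, in KO 2. The C1qa share of every KO library (19.0 to 20.4%) lay below that of every WT library (21.1 to 22.5%), a difference that was not tested. So C1qb took 50.2 to 58.1% of the sum in every library, while the total of the 3 chains fell several-fold with apoptotic cells. These shares depend on the annotated exonic lengths: 1040 bases for C1qa, 1088 for C1qb and 1931 for C1qc, merged over its 2 transcripts. As plain counts, C1qb was only 1.03 to 1.43 times C1qc in a library.

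**Figure D2:**
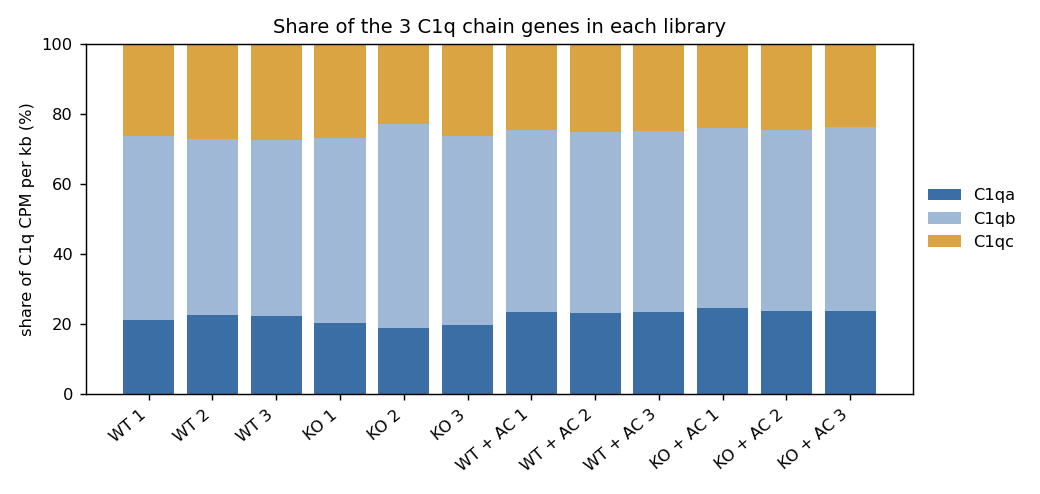
Share of C1qa, C1qb and C1qc in the summed C1q level per kilobase of exon (percent, stacked to 100) in each of the 12 libraries. C1qb holds 50.2 to 58.1% in every library, with the highest share in KO 2.

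Properdin (Cfp), which stabilises the alternative pathway convertase, was at 289, 310 and 231 CPM in WT, 364, 550 and 280 in KO, 106, 101 and 106 in WT + AC and 132, 121 and 123 in KO + AC. The libraries with apoptotic cells all lay below those without. The change was smaller than that of the C1q chains, with a log2 fold change of -1.41 in WT (SE 0.20, edgeR adjusted p = 2.076e-05) and -1.66 in KO (SE 0.20, edgeR adjusted p = 4.18e-06). Among genes of at least 10 CPM, 13.5% in WT and 12.3% in KO fell further, and among those of like length 38.0% and 36.1% did.

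C3 was at 157, 118 and 95.9 CPM in WT, 127, 143 and 152 in KO, 109, 111 and 117 in WT + AC and 150, 137 and 147 in KO + AC. The WT libraries spread over the whole range of the WT + AC libraries, and KO and KO + AC overlapped. No change with apoptotic cells was called: the log2 fold change was -0.14 in WT (SE 0.12, edgeR adjusted p = 0.280) and 0.04 in KO (SE 0.12, edgeR adjusted p = 0.742). In WT it was called lower without WT 3 (-0.30, edgeR adjusted p = 0.01063) and with the length and GC correction (-0.28, edgeR adjusted p = 0.01019), and in KO higher with total counts (0.48, edgeR adjusted p = 0.001313). Its sign in WT turned with scaling on total counts (0.27) or on the macrophage markers (0.22), and without WT 1 (0.08).

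Factor B (Cfb), the protease of the alternative pathway convertase, had 0 counts in each WT library and 2, 0 and 0 in KO. In WT + AC there were 7, 15 and 5 counts and in KO + AC 18, 15 and 20. In WT it was thus at least 2.46-fold higher with apoptotic cells (27 counts against 0, taking 3 counts in each WT library as the limit that 0 allows). In KO the ratio of summed counts per scaled depth was 21.2 (53 against 2 counts; 95% Clopper-Pearson interval 5.60 to 179.9, covering counting error only). edgeR called both changes (adjusted p = 4.624e-05 and 3.936e-06), beside 48.3% of genes called higher in WT and 49.6% in KO. Genes that were silent without apoptotic cells often had a few counts with them: of 35668 symbols with at most 2 counts over the 6 libraries without apoptotic cells, 64.6% had a count with them, and 3.84% reached the mean of 13.3 counts that Cfb had. For the 7121 of these symbols that are protein coding, as Cfb is, the shares were 80.8% and 4.82%. The T cell gene Lck rose likewise, from 0.612 to 1.43 CPM without to 19.5 to 28.3 CPM with apoptotic cells. It is 1 of 8 T cell markers listed, of which 5 were tested, with 3 called higher and 1 lower in each genotype. Another of them, Lat, fell from 28.5 to 56.0 CPM without to 13.9 to 17.9 CPM with apoptotic cells. Whether transcripts of the Jurkat cells contributed to the counts of Cfb was not tested.

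C3ar1, the C3a receptor, was at 847, 971 and 1113 CPM in WT and at 822, 622 and 780 in KO. With apoptotic cells it was at 678, 633 and 647 CPM in WT + AC and at 704, 730 and 716 in KO + AC. WT lay above all the other groups, and KO overlapped KO + AC. In WT it fell with apoptotic cells (log2 fold change -0.58, SE 0.10, edgeR adjusted p = 6.549e-06). Many genes fell further in WT: 37.5% of those of at least 10 CPM, and 35.1% of those of like length. The fall was smaller with the length and GC correction (-0.38) or macrophage scaling (-0.23), and with total counts it was not called (-0.17, edgeR adjusted p = 0.1098). In KO the value was -0.05 (SE 0.10, edgeR adjusted p = 0.645), and its sign turned with DESeq2 size factors (0.04), with macrophage markers (0.10) and with total counts, where it was called (0.39).

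C5ar1, the C5a receptor, was at 490, 490 and 465 CPM in WT and at 428, 360 and 380 in KO. With apoptotic cells it was at 428, 399 and 401 CPM in WT + AC and at 465, 461 and 430 in KO + AC. WT lay above WT + AC in every library, and KO below KO + AC. The log2 fold change was -0.24 in WT (SE 0.08, edgeR adjusted p = 0.0112) and 0.22 in KO (SE 0.08, edgeR adjusted p = 0.0192). Of genes of at least 10 CPM, 49.4% had a lower value in WT and 60.4% in KO. Of those of like length, 74.5% and 86.6% did. The direction in WT depended on scaling, at 0.17 with total counts, 0.12 with macrophage markers and 0.22 with the length and GC correction, and the call was lost with DESeq2 (-0.13). The call in KO was lost without KO 2, KO + AC 1, KO + AC 2 or WT 1, with a lowest value of 0.12, and the value was 0.75 with the length and GC correction.

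The difference between the genotypes in the effect of apoptotic cells was tested as an interaction, defined as the effect in KO minus that in WT. It was called for 2 of the 8 members, both higher, where 7.55% of genes were called higher, 5.13% lower and 12.7% in either direction. C3ar1 was at 0.53 (SE 0.14, edgeR adjusted p = 0.014) and C5ar1 at 0.45 (SE 0.12, edgeR adjusted p = 0.0129). No member was called lower by edgeR, by DESeq2 or at an unadjusted p under 0.05. The interaction was -0.08 to 0.25 for the C1q chains, 0.18 for C3 and -0.26 for Cfp, with edgeR adjusted p from 0.426 to 0.914. Both receptor calls rested in part on single libraries and on scaling. They also came from the joint fit, whose common coefficient of variation was 0.0839. The libraries without apoptotic cells gave 0.117 when fitted alone, and those with them 0.0294. The part of this pooling in the calls was not tested. Without KO 2 the values were 0.38 (edgeR adjusted p = 0.078) for C3ar1 and 0.35 (0.073) for C5ar1, and without WT 3 C3ar1 was at 0.43 (0.064). Scaled on the macrophage markers they were 0.33 (edgeR adjusted p = 0.10) and 0.25 (0.146), and with the length and GC correction C3ar1 was at 0.32 (0.066). C1qc was called higher with that correction (0.40, edgeR adjusted p = 0.043). C1qa was called higher with the correction and the replicate block together (0.57, edgeR adjusted p = 0.017). That correction was fitted to all genes tested, whatever their level, with the limit given above. Without KO 1 and KO 2 together, C1qa, C1qb and C1qc were at 0.71, 0.42 and 0.48. KO 3 was then the only KO library and was assumed to vary like the other groups. In these same data 3 of the 8 macrophage markers were also called higher in the interaction, among them Adgre1 (0.45) and Cd14 (0.66).

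**Figure D3:**
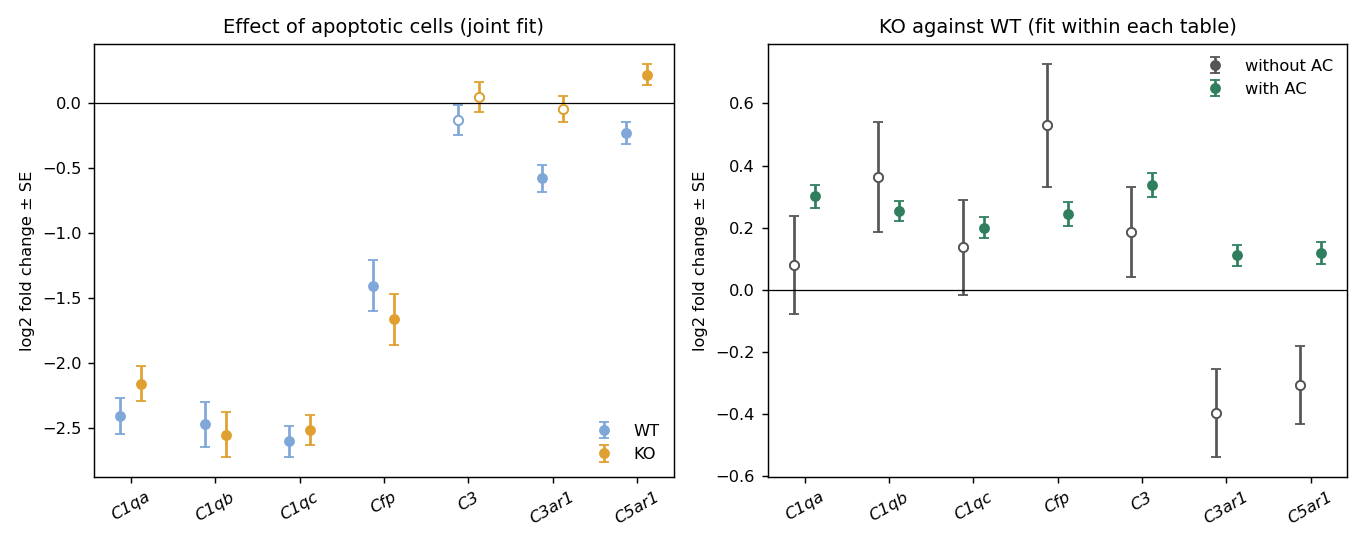
Left, log2 fold change with apoptotic cells in WT and KO from the joint fit of 12 libraries; right, log2 fold change of KO against WT without and with apoptotic cells, each from the fit of its own 6 libraries. Points are estimates, bars their SE and filled points have an adjusted p under 0.05; Cfb is left out for its low counts. C1qa, C1qb, C1qc and Cfp lie between -2.60 and -1.41 on the left, and on the right all 7 genes are filled with apoptotic cells and open without.

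Whether the genotypes differed was then tested within each table, where CPM are scaled over the 6 libraries of that table. With apoptotic cells, 7 of the 8 members were higher in KO + AC than in WT + AC, where 6.58% of the 16467 genes tested were called higher, 4.75% lower and 11.3% in either direction. The changes were small, from 0.11 to 0.34 on the log2 scale, and none reached 1.5-fold. The median over the 8 members was 0.249 and that of all genes -0.020.

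C1qa was at 150, 149 and 151 CPM in WT + AC and 196, 181 and 177 in KO + AC (log2 fold change 0.30, SE 0.04, edgeR adjusted p = 3.68e-08). C1qb was at 349, 347 and 350 against 428, 410 and 408 CPM (0.25, SE 0.03, edgeR adjusted p = 1.017e-07). C1qc was at 294, 301 and 296 against 352, 344 and 328 CPM (0.20, SE 0.03, edgeR adjusted p = 2.333e-05). For each chain the lowest KO + AC library lay above the highest WT + AC library.

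C3 was at 126, 128 and 135 CPM in WT + AC and 169, 156 and 166 in KO + AC, the largest called change of the 8 (0.34, SE 0.04, edgeR adjusted p = 4.295e-09). Cfp was at 122, 116 and 122 against 149, 138 and 139 CPM (0.24, SE 0.04, edgeR adjusted p = 6.493e-06). Neither gene's groups overlapped. Cfb was at 0.410, 0.856 and 0.288 against 1.07, 0.888 and 1.18 CPM, and its difference did not pass the test (1.00, SE 0.35, edgeR adjusted p = 0.0562).

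C3ar1 was at 781, 726 and 748 CPM in WT + AC and 797, 829 and 809 in KO + AC, without overlap (0.11, SE 0.03, edgeR adjusted p = 0.0204). C5ar1 was at 494, 458 and 463 against 526, 524 and 486 CPM, and WT + AC 1 lay above KO + AC 3 (0.12, SE 0.04, edgeR adjusted p = 0.0188). The C3ar1 call was lost without KO + AC 2, WT + AC 2 or WT + AC 3, and the C5ar1 call without those or KO + AC 1, with lowest values of 0.09 and 0.10.

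The macrophage markers rose beside them: 5 of 8 were called higher in KO + AC, with a median of 0.154 and with Lyz2 at 0.24, Cd14 at 0.32, Csf1r at 0.20, Adgre1 at 0.21 and Cd68 at 0.11. Of the 8 fibroblast and stromal markers 7 were tested and 5 were called lower, and the list had a summed level of 371 to 407 CPM in WT + AC and 251 to 271 in KO + AC. Of the 8 T cell markers taken for Jurkat cells 5 were tested and 2 were called lower, Lck (-0.27) and Lat (-0.28). The list summed to 48.2 to 51.8 CPM in WT + AC and 39.2 to 44.6 in KO + AC. Lat was also present without apoptotic cells, at 28.5 to 37.0 CPM in WT and 42.3 to 56.0 in KO. Its value and the sum are thus not measures of Jurkat cells alone. No marker of the 3 lists was at 0 in all libraries of either group. The part of these shifts in the members' differences was not tested. Scaled on the macrophage markers, 4 members stayed called at smaller values (C1qa 0.16, C1qb 0.12, C3 0.20 and Cfp 0.11). C1qc lost its call (0.0637, edgeR adjusted p = 0.1765), and C3ar1 and C5ar1 each turned to -0.02. With total counts C3ar1 (0.064) and C5ar1 (0.0718) lost their calls. In the joint fit of all 12 libraries, whose common coefficient of variation was 0.0839 against 0.0294 for the libraries with apoptotic cells alone, no member was called in this comparison (edgeR adjusted p from 0.19 to 0.78).

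**Figure D4:**
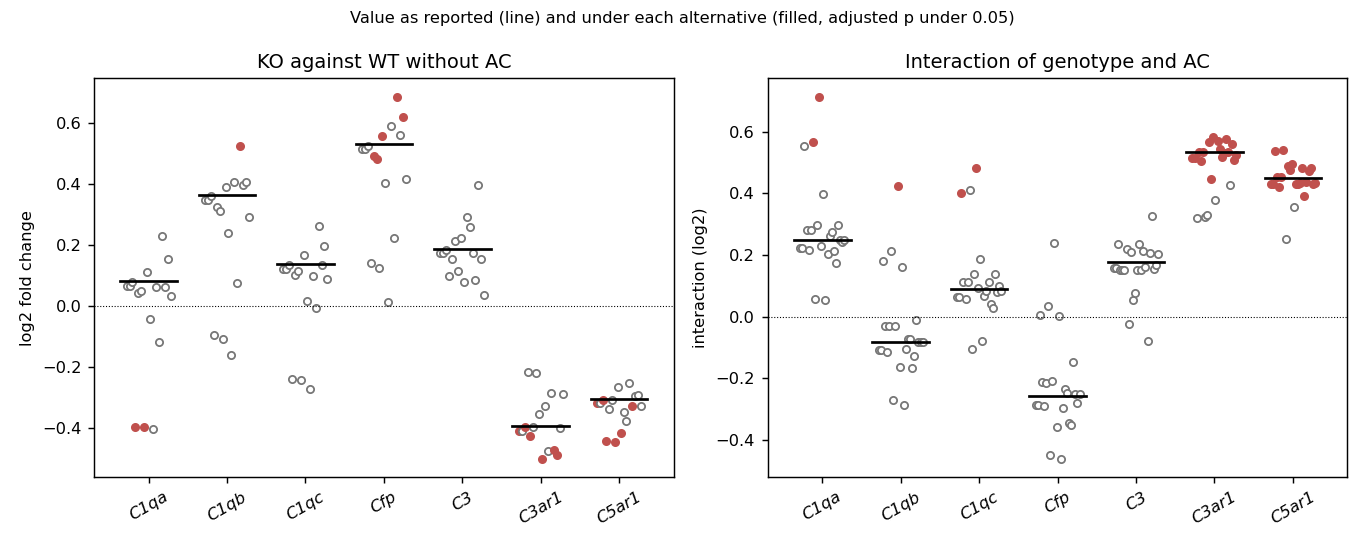
Value of each member as reported (line) and under each alternative setting (points; filled, adjusted p under 0.05), for KO against WT without apoptotic cells (left, log2 fold change) and for the interaction (right, log2). The C1q chains lie on both sides of 0 on the left, and C3ar1 and C5ar1 stay below 0 on the left and above 0 on the right.

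Without apoptotic cells, 0 of the 7 members tested were called by edgeR, where 16.2% of the 12640 genes tested were called (7.94% higher, 8.24% lower). At an unadjusted p under 0.05, Cfp was higher in KO and C3ar1 and C5ar1 were lower. Both receptors were called lower by DESeq2, in the joint fit of 12 libraries and with total counts as scaling. The joint fit had a smaller common coefficient of variation (0.0839) than the libraries without apoptotic cells alone (0.117). Cfb had too few counts to be tested. KO libraries spread more than WT libraries for the C1q chains and Cfp.

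C3ar1 was at 726, 835 and 960 CPM in WT and 709, 538 and 669 in KO, and C5ar1 at 420, 422 and 401 against 369, 311 and 325. For both receptors the highest KO library lay below the lowest WT library. The log2 fold changes were -0.40 (SE 0.14, edgeR adjusted p = 0.056) and -0.31 (SE 0.12, edgeR adjusted p = 0.0886). Without KO 3 both were called (-0.47, edgeR adjusted p = 0.012, and -0.33, edgeR adjusted p = 0.026), and C3ar1 was called without WT 1 (-0.49, edgeR adjusted p = 0.047).

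Cfp was at 248, 266 and 199 CPM in WT and 314, 476 and 240 in KO, with KO 3 inside the WT range (0.53, SE 0.20, edgeR adjusted p = 0.0797). It was called without KO 3 (0.69, edgeR adjusted p = 0.0031) or WT 2 (0.62, edgeR adjusted p = 0.044), and fell to 0.22 without KO 2 (edgeR adjusted p = 0.3692). C1qb was at 1500, 1523 and 1290 CPM in WT and 1738, 2524 and 1285 in KO, where KO 3 was the lowest of all 6 libraries (0.36, SE 0.18, edgeR adjusted p = 0.155). It was called without KO 3 (0.52, edgeR adjusted p = 0.0069), and was at 0.073 without KO 2 (edgeR adjusted p = 0.8167).

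C1qa was at 574, 650 and 551 CPM in WT and 643, 788 and 447 in KO (0.08, SE 0.16, edgeR adjusted p = 0.753). C1qc was at 1334, 1450 and 1250 against 1562, 1763 and 1112 CPM (0.14, SE 0.15, edgeR adjusted p = 0.551). For both chains KO 2 lay above all WT libraries and KO 3 below them, and for C1qa KO 1 lay inside the WT range. C3 was at 135, 101 and 82.7 CPM in WT and 109, 124 and 130 in KO, with WT 1 the highest (0.19, SE 0.15, edgeR adjusted p = 0.377).

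The KO libraries differed in how counts depended on exonic length. Across 12530 genes, the correlation of a library's deviation with log2 length was -0.527 in KO 1, -0.299 in KO 2 and 0.313 in KO 3, against 0.199 to 0.360 in WT, as a description over genes that are not independent. The C1q chains and Cfp have short transcripts. Genes of like length had a median KO against WT of 0.277 for C1qa, 0.257 for C1qb, 0.195 for C1qc and 0.209 for Cfp. With length and GC corrected, C1qa was called lower in KO (-0.40, edgeR adjusted p = 0.0253) and C5ar1 was called (-0.44, edgeR adjusted p = 0.0081). Cfp was then at 0.14, C1qb at -0.10 and C3ar1 at -0.22, none of them called.

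Per kilobase of exon the order of the members was compared within each group. This order rests on the annotated exonic lengths, merged over the transcripts of each gene. In WT it was C1qb (1537 CPM per kb), C1qc (810), C1qa (662), C3ar1 (227), C5ar1 (187), Cfp (159), C3 (24.0) and Cfb (0), and no neighbours in that order overlapped in their libraries. In KO the C1q chains again led, with C1qb at 1971 CPM per kb and with C1qc (889) and C1qa (698) overlapping, and Cfp (229), C3ar1 (172) and C5ar1 (151) overlapped in turn. In WT + AC, C1qb was still first at 278 CPM per kb, but C5ar1 (159) and C3ar1 (152), which overlapped, came before C1qc (134) and C1qa (125). In KO + AC, C1qb (337) was followed by C5ar1 (176), C3ar1 (166), C1qa (157) and C1qc (156), each overlapping the next. So with apoptotic cells the C1q A and C chains came down to or below the range of the receptor transcripts. C3 stayed at 21.9 to 28.1 CPM per kb in all 4 groups as a mean.

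**Figure D5:**
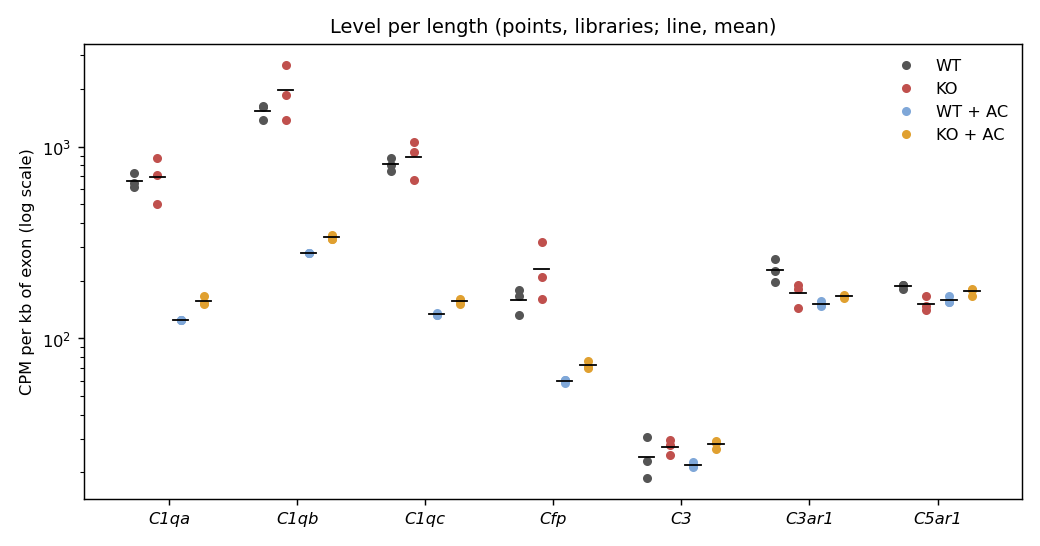
Level per kilobase of exon (CPM per kb, log scale) of 7 members in the 4 groups; points are libraries and lines their means. C1qb is highest in every group, the C1q chains and Cfp drop with apoptotic cells, and C3 stays between 21.9 and 28.1 as group means; Cfb is left out, being 0 in WT.

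Across the 12 libraries, the genes of at least 10 CPM whose pattern was most like that of C1qa were C1qc, Cyb5r1 and Derl2, each with a Pearson r of 0.998 on log2(CPM + 1). C1qb followed C1qa at 0.996 and Cfp at 0.969. For C3 they included Gmip (0.907) and Gaa (0.888), and for Cfb they were Rfx1 (0.943), Prpf3 (0.937) and Usp3 (0.936). The 12 points share the split into libraries with and without apoptotic cells, and these values carry no test.

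The rest of the complement system was described by a list of 55 further genes, of which 31 were abundant enough to be tested for the effect of apoptotic cells. In WT 17 were called lower and 11 higher, beside 36.7% and 48.3% of all genes, and in KO 17 and 10, beside 36.7% and 49.6%. The median log2 change was -0.737 and -0.421, against 0.249 and 0.320 for all genes. Regulators that restrain complement were among the lower ones. Of 20 listed 10 were tested, and 7 were called lower and 3 higher in each genotype. Cd55, which speeds decay of the convertases, went from 23.0 ± 1.18 to 2.04 ± 0.379 CPM in WT (-3.49, edgeR adjusted p = 3.386e-18) and was at -3.56 in KO (edgeR adjusted p = 2.372e-18). Clusterin (Clu), an inhibitor of the membrane attack complex, was at -3.17 and -4.33.

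Of 17 proteases and recognition proteins of the early steps 7 were tested, and 4 were called lower in each genotype, with 2 higher in WT and 1 in KO. C1s1, a protease of the C1 complex, was at -1.69 in WT and -2.66 in KO, the lectin Fcna at -1.19 and -1.09 and the scavenger receptor Colec12 at -1.05 and -1.20. C4b was higher at 1.13 and 0.92, although its reads cannot be told apart with certainty from those of the near-identical C4a. Among receptors, C5ar2, the second C5a receptor, fell (-1.43 and -1.76), as did Lair1, an inhibitory receptor that binds C1q (-1.01 in each). The fibroblast and stromal markers were called lower for 6 of 8 in WT and 7 of 8 in KO (2 and 1 higher), with medians of -0.930 and -2.069. Lrp1, an endocytic receptor, rose (1.74 and 2.03), and so did Itgam, the alpha chain of complement receptor 3 (0.56 and 1.04). Of the terminal components, Hc, the mouse C5 gene, rose from 0.0413 to 1.45 CPM in WT and from 0.0426 to 1.49 CPM in KO, a low level.

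Between the genotypes without apoptotic cells, 5 of 23 further complement genes tested were higher in KO and 2 lower, beside 7.94% and 8.24% of all genes. Higher were Serping1, the C1 inhibitor (0.81, edgeR adjusted p = 0.004476), C1ra (0.66), Cd59a (0.60), C1s1 (0.52) and Clu (0.45). Among the lower was Itgam (-0.46, edgeR adjusted p = 0.01667). The fibroblast and stromal markers moved with the first set: 4 of 8 were called higher in KO and none lower, and their summed level was 564 to 699 CPM in WT and 771 to 999 CPM in KO, with none at 0. The part of such cells in these differences was not tested.

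With apoptotic cells, 2 of 29 were higher in KO + AC and 4 lower, beside 6.58% and 4.75% of all genes. Higher were Cr1l (0.13) and C8g (0.75, edgeR adjusted p = 0.04954). Lower were Itgax, the alpha chain of complement receptor 4 (-0.32, edgeR adjusted p = 5.202e-10), C1qbp (-0.19), Colec12 (-0.19) and Clu (-0.74). In the interaction 2 of 31 were higher, among them Itgam (0.47), and 6 lower, beside 7.55% and 5.13% of all genes. The 6 that were lower were Clu (-1.16), Cd59a (-1.17), C1s1 (-0.97), Serping1 (-0.93), C1ra (-0.74) and Itgax (-0.64). The fibroblast and stromal markers moved beside them, with 5 of 8 called lower in the interaction, none higher and a median of -0.885.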

How the data were processed

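The deposited files are 2 tables of raw read counts per gene symbol, which the authors left without normalisation, with 1 column per library. Per the submitters' processing notes, fastp, HISAT2 2.0.5 and DESeq2 1.20.0 were used with the mouse genome mm10. How reads were counted, on which annotation and with or without strand, is not given in the sources used here. Total counts were 18256622 to 18770757 per library without and 17000976 to 17285594 with apoptotic cells.

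Comparisons were fitted with the two-sided quasi-likelihood test of edgeR 4.0.16 (R 4.3.3; robust, filterByExpr by group, TMM scaling), over all genes that passed the filter, and called at a Benjamini-Hochberg adjusted p under 0.05. KO was compared with WT within each table (12640 and 16467 genes). The effect of apoptotic cells and the interaction came from 1 joint fit of the 12 libraries on shared symbols (16810 genes). Each fit has its own scaling, so CPM of 1 library differ between fits. Of the 8 members, 7 passed the filter without apoptotic cells and 8 in the other fits. The procedure was tested on simulated counts. Lengths and positions came from GENCODE vM21 (GRCm38), matched by symbol, and promoter windows from RefSeq (GRCm38.p6). Intervals and floors (3 counts) cover counting error alone, as no molecular identifiers are named and reads need not be separate molecules.

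The members, the lists of other complement genes and of cell type markers, and the rule for named genes (all members; up to 4 called genes of each complement list and comparison, by smallest p; the 3 genes most like C1qa, C3 or Cfb) were chosen with earlier results of these data known. The motifs, the view of genes above 10 CPM, the windows of like length (0.8 to 1.25 times), the set of symbols with few counts and the scaling on macrophage markers were chosen after seeing the data. Named in the text as well, after their values were seen, is Lck. Of the other complement genes, C9 among them, 3 were not analysed in one or both tables. Genes that the rule names but that are missing from the text are not reported here.

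Alternatives were DESeq2 1.42.0, limma 3.58.1 (voom), edgeR with the size factors of DESeq2 or with total counts only, a replicate block, no filter, a correction for exonic length and GC content, both together, at least a 1.5-fold change, the joint or the 6-library fit, leaving out each library, and leaving out KO 1 and KO 2.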

Additional observations from a re-analysis of the deposited data

Results flagged for a closer look

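The response of C3ar1, the C3a receptor, to apoptotic cells differed between the genotypes, with an interaction of 0.53 on the log2 scale (edgeR adjusted p = 0.014). It fell in WT (-0.58; -0.23 with macrophage scaling, and -0.17 and not called with total counts) and stood at -0.05 in KO. C5ar1, the C5a receptor, differed likewise, with an interaction of 0.45 (edgeR adjusted p = 0.0129), lower with apoptotic cells in WT (-0.24) and higher in KO (0.22). Each difference was tested as an interaction term in the fit of the 12 libraries. Neither call held without KO 2 (0.38 and 0.35) or with scaling on the macrophage markers (0.33 and 0.25).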

How the results depend on the processing

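Of 790 values recomputed for single members under an alternative, 671 kept their direction and their side of the threshold, 44 lost and 29 gained a call, and 46 turned in sign; the cause was not tested except where the alternative fits fewer genes or libraries. Without KO 1 and 2, KO 3 stands alone and is assumed to vary like the other groups. The C1q chains and Cfp stayed called lower with apoptotic cells in both genotypes under every alternative run.

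In KO against WT without apoptotic cells, no member was called. Higher calls came to 1 (Cfp) with no filter, with the replicate block or with macrophage scaling, and to 0 to 2 on leaving out a library. Lower calls came to 2 with DESeq2, the joint fit, the length and GC correction, that correction with the replicate block, or total counts, to 1 with no filter, and to 0 to 2 on leaving out a library. C1qa turned to -0.40 with length and GC correction, -0.40 with block and correction, -0.40 without KO 1 and 2 and -0.0447 with total counts, and ran from -0.12 to 0.23 on leaving out a library. C1qb turned to -0.10, -0.11 and -0.16 in the first 3 of these settings, and C1qc to -0.24, -0.24 and -0.27. On leaving out a library C1qb ran from 0.073 to 0.52 and Cfp from 0.22 to 0.69, and C1qc ran from -0.0073 to 0.26 on leaving out a library.

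In KO + AC against WT + AC, the 7 higher calls became 0 with at least a 1.5-fold change or in the joint fit, 4 with macrophage scaling, 5 with total counts (without C3ar1 and C5ar1), 8 with length and GC correction or DESeq2 size factors (Cfb added) and 5 to 7 on leaving out a library. With macrophage scaling C3ar1 turned to -0.0243 and C5ar1 to -0.0162.

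With apoptotic cells in WT, the single higher call became 0 in the 6-library fit, where Cfb was not tested, and 2 with length and GC correction, alone or with the block, and stayed at 1 on leaving out a library. C3ar1 was at -0.17 and not called with total counts. C5ar1 turned to 0.22 with the correction, 0.21 with block and correction, 0.12 with macrophage scaling and 0.17 with total counts. C3 turned to 0.22 with macrophage scaling, 0.27 with total counts, and ran from -0.30 to 0.0824 on leaving out a library. In KO, the 2 higher calls became 1 with at least 1.5-fold or no filter, 4 with total counts and 1 to 2 on leaving out a library. C3 turned to -0.0427 with the correction, -0.0487 with block and correction, -0.0191 with no filter and -0.0904 without KO 1 and 2, and ran from -0.0536 to 0.0868 on leaving out a library. C3ar1 turned to 0.0401 with DESeq2 or its size factors, 0.10 with macrophage scaling and 0.39 with total counts, and ran from -0.20 to 0.0071 on leaving out a library.

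In the interaction, the 2 higher calls became 0 with at least 1.5-fold or macrophage scaling, and 0 to 2 on leaving out a library. With the correction the calls were C5ar1 and C1qc, and with block and correction C5ar1 and C1qa. C1qb turned to 0.18 with the correction, 0.21 with block and correction and 0.42 without KO 1 and 2, and Cfp to 0.0055, 0.0334 and 0.24 in the same settings. On leaving out a library C1qb ran from -0.29 to 0.16 and Cfp from -0.46 to 0.0026. C1qc turned to -0.10 and C3 to -0.0233 with macrophage scaling, and on leaving out a library they ran from -0.0789 to 0.19 and from -0.0791 to 0.33. Cfb, at few counts, turned to 0.25 with limma-voom and 1.01 without KO 1 and 2, and ran from -2.40 to 1.01 on leaving out a library.

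Replicate numbers are shared between groups in the labels. The deviations of same-numbered libraries correlated at -0.308, 0.002 and 0.272 for KO with WT and at 0.081, -0.115 and -0.115 for KO + AC with WT + AC. For WT + AC with WT the values were 0.041, 0.094 and 0.06, and for KO + AC with KO -0.053, -0.137 and -0.168. With 3 libraries per group they cannot decide whether libraries were paired. Apart from Cfp above, the replicate block alone changed no count of members called.

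Scaling moved the median log2 change of all genes with apoptotic cells, from 0.249 in WT and 0.320 in KO to 0.656 and 0.761 with total counts and 0.601 and 0.472 with macrophage scaling. The share of higher among called genes went from 56.9 to 69% in WT and from 57.5 to 68.8% in KO with total counts. In KO against WT it went from 49.1 to 21.9% with total counts, 60.2% with the correction and 65.1% with macrophage scaling. In KO + AC against WT + AC it went from 58 to 31.9% with total counts and 4.54% with macrophage scaling, and in the interaction from 59.5 to 45.3% with the correction and 13.8% with macrophage scaling. Depth limits Cfb most, with at most 20 counts in a library.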
